A study of Mus musculus with 6 samples.

Results

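The most mature splenic natural killer (NK) cells, which carry CD11b and have lost CD27, were compared with the least mature, which carry CD27 and lack CD11b. The comparison took the 2 arrays titled CD11b+ CD27- and the 2 titled CD11b-, 4 of the 6 arrays of the series, and covered 18193 genes read from 34945 probe sets with 1 gene symbol. The cells came from spleens of RAG-/- mice, in which mature T and B cells do not form, because antigen receptor genes cannot be rearranged. Cells with NK1.1 were stained for CD27 and CD11b, sorted by flow cytometry, and their total RNA was hybridised to Affymetrix mouse whole-genome arrays. All groups shared the RAG deficiency, no treatment was given, and the sources used here do not give age, sex, strain background or pooling of animals. The less mature group is written CD27+CD11b- and the more mature CD27-CD11b+. The remaining 2 arrays, of CD27+CD11b+ cells, entered the estimate of the spread and are given as the middle subset. The design text calls the 2 arrays of a subset independent replicates and names no animals. The p-values therefore measure no more than how far these samples lie apart, a spread that may be technical.

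NK cells kill infected and transformed cells by releasing granules with perforin and granzymes and by making cytokines, and inhibitory and activating surface receptors set when they do so. In the mouse spleen they are commonly ordered from CD27 single positive through double positive to CD11b single positive cells, an order in which proliferation gives way to strong effector function and circulation in the blood. The transcription factors T-bet and Zeb2 are known to drive the late part of this course, while interleukin-7 receptor expression marks early NK cells and helper innate lymphoid cells, their tissue-dwelling relatives.

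Values are RMA log2 expression, differences are CD27-CD11b+ minus CD27+CD11b-, and means carry the SD over n = 2 arrays. The SE and adjusted p of a difference come from a limma model over all 6 arrays with Benjamini-Hochberg adjustment over all 18193 genes, with called meaning an adjusted p below 0.05. Genes with a mean under 6.45, the level reached by genes of other tissues, are near background, and a fold change from there is given as a lower bound measured from that level. The NK cell markers were high: Nkg7 lay between 12.94 and 13.73, Klrd1 between 12.97 and 13.73, Ncr1 between 9.84 and 10.95 and Gzma between 13.85 and 14.41 on all 6 arrays. The T cell chain Cd3e stayed near background, between 6.02 and 6.44, as did the B cell marker Ms4a1, with a mean of 3.94 ± 0.10 in CD27+CD11b- and 3.88 ± 0.12 in CD27-CD11b+. Other members of the T and B cell lists lay above background in CD27+CD11b-, among them Cd3d at 8.38 and 7.45, Cd28 at 10.57 and 11.05, Trgv1 at 9.78 and 9.83, Cd22 at 8.11 and 8.03 and Ighm at 10.89 and 11.07. The pan-leukocyte gene Ptprc ranged from 13.46 to 13.71. The sorting markers went with the titles. Itgam, which encodes CD11b, was 6.37 and 5.88 in CD27+CD11b- and 9.93 and 9.44 in CD27-CD11b+. Cd27 was 8.78 and 8.03 against 6.96 and 6.47, a difference of -1.70 (SE 0.32, adjusted p = 0.0325). The sort field of CD27-CD11b+ replicate 1 names the opposite gate to its title. Its markers lie with the other CD27-CD11b+ array, and counts without it are given below.

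The arrays also fell into a second division that crossed the subsets. A trio of probe sets without a gene symbol averaged 12.57 in CD27+CD11b- replicate 2 and 12.61 in CD27-CD11b+ replicate 1 (the on arrays), and 4.38 and 4.33 in CD27+CD11b- replicate 1 and CD27-CD11b+ replicate 2 (the off arrays). Each side thus held 1 array of both subsets, and every difference could be read within the off and within the on pair, which share no array.

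The ends of NK maturation differed at many genes. Of 18193 genes, 617 were called, a share of 3.39%, with 408 higher (2.24%) and 209 lower (1.15%) in CD27-CD11b+. A further view without adjustment had 3437 genes at p under 0.05. Called genes that were higher changed by a median of 1.02 and those that were lower by a median of 1.35 on the log2 scale, and 215 were at least 2-fold higher and 159 at least 2-fold lower. Measured changes of 4-fold or more were more often falls, 46 against 30 rises. These 2-fold and 4-fold counts use the measured differences and not the lower bounds from background. Of the genes called higher 82 were near background in CD27+CD11b- alone, and of those called lower 77 in CD27-CD11b+ alone. Of the called genes 83 were near background in both subsets. The subset arrays of all 617 called genes did not overlap, which held for 51.3% of all genes tested.

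The split between rises and falls depended on the scaling. Genes above background were centred 0.18 higher in CD27-CD11b+, and when arrays were centred on those genes 203 were called higher and 355 lower, with 412 of the 617 called in both. All 617 kept their direction. With the on and off division as a block, 1480 genes were called (8.13%), 965 higher (5.3%) and 515 lower (2.83%), among them all 617. The block was read from the data, so its counts may be too high. The differences of the off and on pairs correlated at 0.657 over all genes, a description across genes that are not independent replicates. For the 617 called genes the same sign in both pairs follows from the call, since their subset arrays do not overlap. Leaving out CD27+CD11b- replicate 1 gave 236 calls, and leaving out its replicate 2 gave 296. The same for CD27-CD11b+ gave 84 calls (replicate 1) and 230 (replicate 2). Of the 617, 75 passed in each of these fits, 37 higher and 38 lower.

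**Figure D1:**
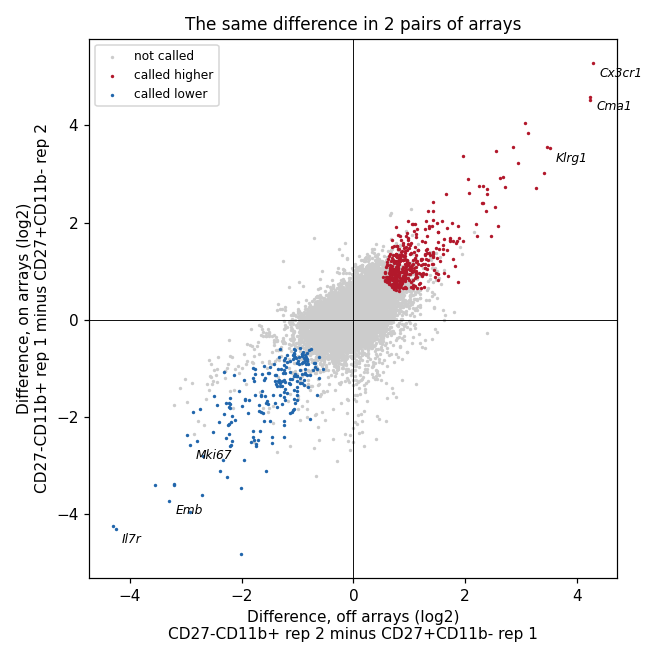
Each point is a gene, with its log2 difference between CD27-CD11b+ and CD27+CD11b- in the off arrays on the x axis and in the on arrays on the y axis, red and blue for the 408 genes called higher and the 209 called lower. The called genes have the same sign in both pairs, which their arrays without overlap fix in advance, and the correlation over all genes was 0.657.

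The largest rise was in Cx3cr1, the fractalkine receptor, which retains effector lymphocytes in the circulation. It was 6.65 and 6.66 in the CD27+CD11b- arrays and 11.94 and 10.95 in the CD27-CD11b+ arrays, 27.6-fold higher (difference 4.79, SE 0.29, adjusted p = 2.92e-04). The middle subset was at 7.46 and 7.26, close to the early end. Cma1, a protease of the mast cell chymase family, was 7.07 and 7.25 against 11.85 and 11.30, 21.3-fold higher (4.41, SE 0.20, adjusted p = 1.12e-04). Its middle values of 9.48 and 9.62 lay about midway. Kcnj8, which forms the pore of potassium channels gated by ATP, was near background at 6.20 and 6.13 and reached 10.66 and 10.43, at least 17.0-fold higher (4.38, SE 0.16, adjusted p = 6.26e-05). Klrg1, an inhibitory receptor for cadherins and the usual surface marker of terminal NK cells, was 9.57 and 9.85 against 13.38 and 13.08, 11.5-fold higher (3.52, SE 0.17). The early and late arrays of these genes were far apart compared with the gap inside either subset. That follows from the choice of the largest differences among called genes whose arrays do not overlap.

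The other large rises included surface enzymes, a platelet gene and a chromatin gene. Entpd1, the ectoenzyme CD39 that breaks down extracellular ATP, was 4.82 and 5.40 in CD27+CD11b- and 8.42 and 8.24 in CD27-CD11b+, at least 3.66-fold higher. Gp1bb, a subunit of the platelet receptor for von Willebrand factor, was 4.60 and 5.36 against 8.91 and 8.06, at least 4.08-fold higher. Smarcd3, a subunit of BAF chromatin remodelling complexes, was 5.33 and 4.76 against 8.30 and 8.19, at least 3.46-fold higher. Gpx8, of the glutathione peroxidase family, was 4.24 and 3.89 against 7.74 and 7.37 (3.49, SE 0.20), at least 2.14-fold from background. Serpinb9b of the intracellular serpins was 8.48-fold higher and Cmklr1, the chemerin receptor, 6.79-fold. Nhsl2, Khdc1b, Denn2b and Smpdl3b, a sphingomyelinase family member, had differences between 2.72 and 3.01, and each was near background in CD27+CD11b-. Itgam, the sorting marker, differed by 3.56 and is no finding. Of the 15 largest rises 14 passed with any 1 of the 4 arrays left out. Smpdl3b was the exception, at 2.39 and adjusted p = 0.125 without CD27-CD11b+ replicate 1.

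Il7r, the interleukin-7 receptor alpha chain that early lymphocytes need for survival, had the largest fall. It was 11.47 and 11.70 in CD27+CD11b-, 9.39 and 9.13 in the middle subset and 7.38 and 7.22 in CD27-CD11b+, 19.5-fold lower at the late end (difference -4.29, SE 0.17, adjusted p = 6.26e-05). Trgv1, a V segment of the gamma chain locus of the T cell receptor, was 9.78 and 9.83 against 5.57 and 5.48, near background, and at least 10.2-fold lower (-4.28, SE 0.21, adjusted p = 1.12e-04). Emb, embigin, a glycoprotein that escorts monocarboxylate transporters, was 11.30 and 11.51 against 7.89 ± 0.16, 11.4-fold lower (-3.52, SE 0.17). Here the middle subset, at 10.94 and 10.72, was still close to the early level. Ltb, the membrane-anchoring chain of lymphotoxin, was 11.15 and 10.98 against 7.56 and 7.60, 11.2-fold lower (-3.48, SE 0.26). Myb, a transcription factor of progenitor cells, was 9.58 and 9.85 at the early end, 9.78 and 9.92 in the middle and 7.04 and 6.89 at the late end (-2.75, SE 0.16, adjusted p = 2.88e-04). These genes were chosen among those whose early and late arrays do not overlap, which held for 51.3% of all genes tested.

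Other large falls varied more between the replicates. Ctla4, an inhibitory receptor best known from T cells, was 7.77 and 9.01 against 5.04 and 4.84 (-3.45, SE 0.42, adjusted p = 0.00634). Kit, the stem cell factor receptor, was 7.71 and 8.80 against 5.10 ± 0.13, and Gpr183, an oxysterol receptor that guides lymphocytes within lymphoid organs, was 8.70 and 9.88 against 6.48 and 5.48. In each the on array of CD27+CD11b- was the higher. Ahr, the aryl hydrocarbon receptor, was 8.71 and 9.95 against 6.83 and 6.32. Mki67, the gene of the proliferation antigen Ki-67, was 11.47 and 10.22 against 7.64 and 8.54 (-2.76, SE 0.55, adjusted p = 0.0397). Here the off array was the higher at both ends. St6galnac3, a sialyltransferase, was 8.10 and 8.55 against 3.73 and 6.08, so its late arrays lay far apart. Acpp (an acid phosphatase), the uncharacterised Gm36723, Dtx1 (a ubiquitin ligase linked to Notch signalling) and Ttn had differences of -3.30, -2.75, -2.68 and -2.74, and Ttn was barely above background at 6.58 ± 0.88 in CD27+CD11b-. Of the 15 largest falls 7 (Il7r, Trgv1, Emb, Ltb, Acpp, Gm36723 and Myb) passed with any 1 of the 4 arrays left out. The lost calls of the other 8 had an adjusted p from 0.0564 to 0.273.

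**Figure D2:**
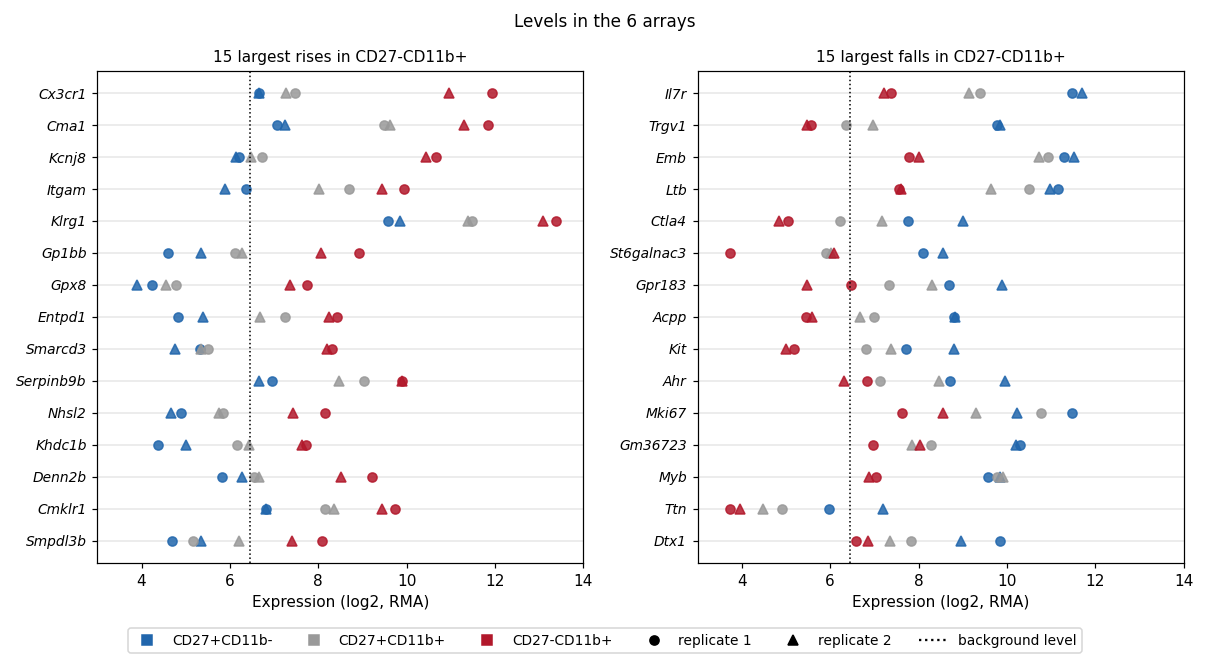
RMA log2 expression (x axis) of the 15 genes with the largest rises and the 15 with the largest falls in CD27-CD11b+ cells, 1 point per array, with colours for the 3 subsets, shapes for replicates and a dotted line at the background level of 6.45. Red CD27-CD11b+ points lie to the right of blue CD27+CD11b- points for the rises and to the left for the falls, as the choice of genes fixed in advance. Grey CD27+CD11b+ points range from the early end (Kcnj8, Emb, Myb) to beyond midway (Trgv1).

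The promoters of the 3 largest rises and the 3 largest falls that the RefSeq table holds (build GRCm38.p6, from 250 bases before to 50 after the annotated start) are shown because Zeb2 was among the transcription factors that rose (below). ZEB factors bind the E-box CAGGTG, and TCF and LEF factors bind CTTTGA. Capitals mark these letters on either strand, and the reverse complements read CACCTG and TCAAAG.
Cx3cr1, chr9:120068247-120068546, minus strand: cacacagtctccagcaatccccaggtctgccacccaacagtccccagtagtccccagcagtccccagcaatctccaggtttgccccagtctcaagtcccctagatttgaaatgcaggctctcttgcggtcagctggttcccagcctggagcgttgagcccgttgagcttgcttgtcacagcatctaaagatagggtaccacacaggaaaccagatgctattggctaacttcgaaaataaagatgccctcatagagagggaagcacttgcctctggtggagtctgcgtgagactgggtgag
Cma1, chr14:55944626-55944925, minus strand: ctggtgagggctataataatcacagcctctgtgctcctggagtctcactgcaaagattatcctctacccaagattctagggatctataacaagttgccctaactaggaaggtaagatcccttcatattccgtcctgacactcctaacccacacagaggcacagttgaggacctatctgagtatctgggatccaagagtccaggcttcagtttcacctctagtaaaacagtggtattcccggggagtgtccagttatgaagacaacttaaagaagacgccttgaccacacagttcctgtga
Kcnj8, chr6:142571565-142571864, minus strand: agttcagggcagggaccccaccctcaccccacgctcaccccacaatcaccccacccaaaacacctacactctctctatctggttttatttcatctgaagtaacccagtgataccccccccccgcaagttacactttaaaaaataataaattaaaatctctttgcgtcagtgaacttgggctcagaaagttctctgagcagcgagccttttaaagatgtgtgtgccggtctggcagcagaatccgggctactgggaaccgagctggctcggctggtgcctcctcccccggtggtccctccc
Il7r, chr15:9529827-9530126, minus strand: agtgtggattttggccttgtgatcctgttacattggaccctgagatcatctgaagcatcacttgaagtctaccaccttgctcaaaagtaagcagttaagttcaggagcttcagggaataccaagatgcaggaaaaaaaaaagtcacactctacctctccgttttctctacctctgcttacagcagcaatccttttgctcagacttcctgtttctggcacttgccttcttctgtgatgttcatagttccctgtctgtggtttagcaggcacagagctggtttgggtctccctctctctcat
Emb, chr13:117220323-117220622, plus strand: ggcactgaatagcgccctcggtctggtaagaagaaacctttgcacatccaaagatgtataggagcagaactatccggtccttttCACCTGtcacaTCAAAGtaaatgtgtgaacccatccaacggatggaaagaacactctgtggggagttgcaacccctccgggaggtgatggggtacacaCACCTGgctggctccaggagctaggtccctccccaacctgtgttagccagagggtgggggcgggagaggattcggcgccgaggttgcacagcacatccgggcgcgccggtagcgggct
Ltb, chr17:35194257-35194556, plus strand: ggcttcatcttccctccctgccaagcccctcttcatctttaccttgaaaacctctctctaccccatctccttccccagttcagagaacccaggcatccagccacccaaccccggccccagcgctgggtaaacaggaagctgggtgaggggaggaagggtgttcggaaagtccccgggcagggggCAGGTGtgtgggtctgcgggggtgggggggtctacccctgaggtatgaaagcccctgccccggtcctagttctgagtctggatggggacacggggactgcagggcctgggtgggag
The windows of Cx3cr1, Cma1, Kcnj8 and Il7r held neither, while Emb held CAGGTG at 2 places and CTTTGA once and Ltb held CAGGTG once. Of the genes tested 14452 had a promoter in the table. CAGGTG was in 19.7% of them, in 19.8% of 328 called higher and in 28.6% of 168 called lower, against 20% of all 27025 promoters. CTTTGA was in 13.6% of those tested, 13.1% of those called higher and 10.7% of those called lower (16.2% of all promoters). The interferon response element was in 3.02%, 2.44% and 7.14% in the same order (3.49% of all). The T-box letters AGGTGTGA, whose occurrence after a C overlaps CAGGTG, were in 1.06% of those tested, in 2 of the 328 and in 0 of the 168 (1.27% of all). The cell cycle homology region TTTGAA was in 13.3%, 11% and 11.9% (18.1% of all). These shares describe letters in a window and were not tested.

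Genes of the lytic granule moved in both directions. Of 29 measured granule genes and death ligands 5 rose, 3 fell and 21 did not pass, with a median difference of 0.18 against -0.01 over all genes. The median after centring was 0.00. Over all genes 2.24% were called higher and 1.15% lower, the shares to set beside the counts of each list here and below. Gzmb, the protease granzyme B that triggers apoptosis in target cells, was 10.94 and 10.48 in CD27+CD11b- and 13.23 and 13.18 in CD27-CD11b+, 5.64-fold higher (2.50, SE 0.21, adjusted p = 0.00132). The early arrays sat more than 2 log2 units below the late ones. Prf1, the pore-forming protein perforin, was already high at 11.76 and 11.94 and reached 13.15 and 13.31 (1.38, SE 0.16). Ctsc, the protease that activates granzymes, rose by 0.78, along with Cma1 and Serpinb9b, but did not pass after centring. Gzmm, a granzyme of different specificity, fell from 8.23 and 7.40 to 6.27 and 6.47, near background. Lyst, a regulator of lysosome size and granule traffic, was 9.33 and 9.17 against 7.91 and 7.93, 2.51-fold lower (-1.33, SE 0.15). Tnfsf10, the death ligand TRAIL that is typical of immature NK cells, was 7.49 and 7.79 against 6.39 and 6.66 (-1.11, SE 0.18). Gzmb, Cma1 and Serpinb9b passed with any 1 of the 4 arrays left out, and the lost calls of the other 5 had an adjusted p from 0.0574 to 0.285.

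Among 37 measured lectin-like and immunoglobulin-like receptors 3 rose, 5 fell and 29 did not pass. Cd160, a receptor for HVEM and class I molecules, was 11.08 and 10.88 against 8.37 and 8.28, 6.32-fold lower (-2.66, SE 0.15, adjusted p = 2.42e-04). Crtam, an adhesion receptor for Cadm1, was 9.52 and 9.55 against 7.61 and 7.64 (-1.91, SE 0.14), with the middle subset at 9.21 and 9.26. Slamf6, a homophilic SLAM family receptor, was 7.65 and 7.27 against 5.46 and 5.42, at least 2.00-fold lower. Cd200r1, an inhibitory receptor for CD200, was 7.04 and 7.13 against 5.49 and 5.81, and it had reached 5.50 and 5.46 in the middle subset. Ctla4 was the fifth that fell. Besides Klrg1, Cd48, a ligand of the NK receptor 2B4, rose by 1.05 but did not pass after centring, and Klrc2, the activating lectin NKG2C, differed by 1.05 while near background in both subsets. The list's median was 0.08, and -0.10 after centring. Klrg1, Cd160, Crtam and Slamf6 passed with any 1 of the 4 arrays left out, and the lost calls of the other 4 had an adjusted p from 0.0509 to 0.268.

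Receptors that position NK cells split into rises and falls. Of 22 measured chemoattractant and egress receptors 3 rose, 4 fell and 15 did not pass. S1pr5, the sphingosine-1-phosphate receptor that NK cells use to leave lymph nodes and bone marrow, was 9.88 and 9.49 against 12.18 and 12.27, 5.83-fold higher (2.54, SE 0.17, adjusted p = 4.66e-04). Cx3cr1 and Cmklr1 were the other rises. Cxcr3, a receptor for interferon-induced chemokines at inflamed sites, was 11.60 and 11.20 against 9.12 and 9.48, 4.28-fold lower (-2.10, SE 0.23, adjusted p = 0.00440). Cxcr6, which retains lymphocytes in liver, was 7.04 and 8.39 against 5.27 and 5.47 and already 4.43 and 5.32 in the middle subset. Ccr2, which draws cells to inflamed tissue, fell by 0.81, and Gpr183 was the largest fall. The 3 rises passed with any 1 of the 4 arrays left out, whereas the 4 falls did not (adjusted p up to 0.218, the highest without CD27-CD11b+ replicate 1).

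Of 27 integrin and adhesion genes Itgam alone rose and 3 fell. Itgb3, the integrin beta 3 chain, was 8.11 and 8.86 against 6.36 and 5.93, at least 4.08-fold lower (-2.34, SE 0.31, adjusted p = 0.00966). Thy1, the surface glycoprotein CD90, was 10.55 and 9.95 against 8.20 and 8.35, 3.94-fold lower, while the middle subset kept the early level at 10.70 and 10.22. Emb was the other fall. When CD27-CD11b+ replicate 1 was left out Itgb3 and Thy1 did not pass, at adjusted p = 0.0744 and 0.0897. Itgb3 also missed the threshold without CD27-CD11b+ replicate 2, at 0.0689.

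Transcription factors of effector maturation rose and those of progenitor type fell where they passed. Of 31 measured effector and maturation factors 6 rose, 0 fell and 25 did not pass, with 25 of the 31 differences positive and a median of 0.22 (0.04 after centring). In the fit with the array division as a block 7 of the 31 rose and 3 fell. The list's called share was 19.4% against 3.39% of all genes, and over all genes 8958 of 18193 differences were positive. Zeb2, a zinc finger repressor needed for terminal NK maturation, was 9.25 and 9.17 in CD27+CD11b-, 10.05 and 10.21 in the middle and 11.41 and 11.61 in CD27-CD11b+, 4.93-fold higher (2.30, SE 0.15, adjusted p = 4.66e-04). Its 3 subsets did not overlap. Prdm1, the repressor Blimp-1, was 7.19 and 7.07 against 9.69 and 9.25, 5.06-fold higher (2.34, SE 0.18). Tbx21, the gene of T-bet, was 10.80 and 10.43 against 11.73 and 11.70, 2.14-fold higher (1.10, SE 0.17, adjusted p = 0.0158). Klf2, a factor that promotes recirculation, Irf8 and Klf3 rose by 1.52, 1.12 and 0.94. After centring Irf8 and Klf3 did not pass (adjusted p = 0.0528 and 0.0771), and with the replicate number as a block Klf2 did not (0.055). Klf3 has other probe sets above background, at which the differences were 1.16, 0.22, 0.55 and 1.41. Zeb2 and Prdm1 passed with any 1 of the 4 arrays left out, and the lost calls of the other 4 had an adjusted p from 0.0742 to 0.283.

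Of 24 measured progenitor and memory-type factors Myb and Ikzf2 fell, 0 rose and 22 did not pass, with 17 differences negative and a median of -0.24. The list's called share was 8.33% against 3.39% of all genes. Ikzf2, the Ikaros family factor Helios, was 9.81 and 10.07 at the early end, 8.08 and 8.47 in the middle and 7.49 and 7.62 at the late end, 5.24-fold lower (-2.39, SE 0.18, adjusted p = 8.25e-04). Most of its fall was thus present in the middle subset, unlike that of Myb, whose middle level was the early one. Both passed with any 1 of the 4 arrays left out.

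Cytokine and TNF family genes mostly fell where they were called. Of 31 measured cytokine receptors Il10ra rose and Il7r, Kit and Il2ra fell. Il10ra, the ligand-binding chain for interleukin-10, was 7.98 and 7.78 against 9.32 and 8.87 (1.21, SE 0.20, adjusted p = 0.0209). Il2ra, the high-affinity interleukin-2 receptor chain CD25, was 5.97 and 6.95 against 4.53 and 4.51, at the background level even in CD27+CD11b-. Of 25 TNF superfamily ligands and receptors 0 rose, 6 fell and 19 did not pass. Besides Ltb and the sorting marker Cd27, Tnfrsf25, a death domain receptor, was 7.38 and 8.09 against 6.01 and 5.88, at least 2.43-fold lower (-1.79, SE 0.24). Tnfsf14, the ligand LIGHT, was 8.24 and 8.15 against 7.13 and 7.38, Tnf was 6.90 and 7.11 against 6.20 and 6.09, and Lta was near background in both subsets. In these lists Il7r and Ltb passed with any 1 of the 4 arrays left out. The lost calls had an adjusted p from 0.0558 to 0.154 among the receptors for cytokines and from 0.0669 to 0.209 in the TNF family.

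Secreted factors included several rises of chemokines. Of 21 measured cytokines and chemokines 4 rose, 1 fell and 16 did not pass. Ccl4, a chemokine that recruits leukocytes, was 9.97 and 10.23 against 12.22 and 11.47, 3.35-fold higher (1.74, SE 0.24, adjusted p = 0.0113). Ccl3, the related chemokine, was 10.80 and 10.74 against 12.72 and 11.90, 2.90-fold higher. Osm, oncostatin M of the interleukin-6 family, was 7.98 and 8.03 against 9.79 and 9.10, and Ccl9 rose from near background by 1.79 but did not pass with the replicate number as a block. In each of the 4 the on array of CD27-CD11b+ was above the off array. Il2 fell by 1.12 but was near background in both subsets. None of the 5 calls passed with each of the 4 arrays left out in turn (adjusted p of the lost calls from 0.052 to 0.131).

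Most markers of helper innate lymphoid cells fell. Of 18 measured members 12 fell, 0 rose and 6 did not pass, a called share of 66.7% against 3.39% of all genes, and the median difference was -1.86 (-1.99 for the off pair, -1.90 for the on pair). The list was written with earlier results on several of its members known, so its direction is no independent evidence. In the same arrays the mean level of the list was 7.67 and 7.95 in CD27+CD11b-, 6.48 and 6.72 in the middle subset and 6.04 and 5.81 in CD27-CD11b+. Tmem176b, a membrane protein typical of type 3 innate lymphoid cells, was 9.89 and 10.18 against 7.83 and 7.65, 4.90-fold lower (-2.29, SE 0.20, adjusted p = 0.00155), and its relative Tmem176a was 8.28 and 8.36 against 6.71 and 6.34. Cd163l1, a scavenger receptor family member found on gamma delta T cells and innate lymphoid cells, was 7.96 ± 0.07 against 5.86 and 5.69, at least 2.84-fold lower. All these had reached about the late level in the middle subset. Il7r, Ltb, Gpr183, Acpp, Kit, Ahr, Il2ra, Cd200r1 and Arg1, an arginase near background in both subsets, were the other falls. In bulk samples fewer cells of a type and less RNA per cell cannot be told apart. With any 1 of the 4 arrays left out Il7r, Ltb, Acpp, Tmem176a, Tmem176b and Cd163l1 passed, and the lost calls of the other 6 had an adjusted p from 0.0556 to 0.156.

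Some transcripts of the antigen receptor machinery fell too. Of 18 measured T cell and antigen receptor genes 4 fell, 0 rose and 14 did not pass, and the median was -0.42. Trgv4, of the same locus as Trgv1, was near background in both subsets and differed by -2.11. Cd3d, a chain of the T cell receptor complex, was 8.38 and 7.45 against 5.55 and 5.52, at least 2.76-fold lower (-2.38, SE 0.41, adjusted p = 0.0256). Cd28, a co-stimulatory receptor, was 10.57 and 11.05 against 8.57 and 8.78, 4.39-fold lower. Trgv1 and Trgv4 passed with any 1 of the 4 arrays left out, while Cd3d and Cd28 did not (adjusted p from 0.0537 to 0.182). Trgv4 lies on a probe set whose name marks matches to other transcripts, as do Myb, Cd160, Khdc1b, Tsr1 and Ighm. Of the 13 B cell markers measured Cd22 and Ighm fell. Cd22, an inhibitory lectin, was 8.11 and 8.03 against 5.85 and 5.86, at least 3.06-fold lower (-2.21, SE 0.16, adjusted p = 7.27e-04). Ighm fell by 0.84, with differences of -0.77 and 0.00 at its other probe sets above background.

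**Figure D3:**
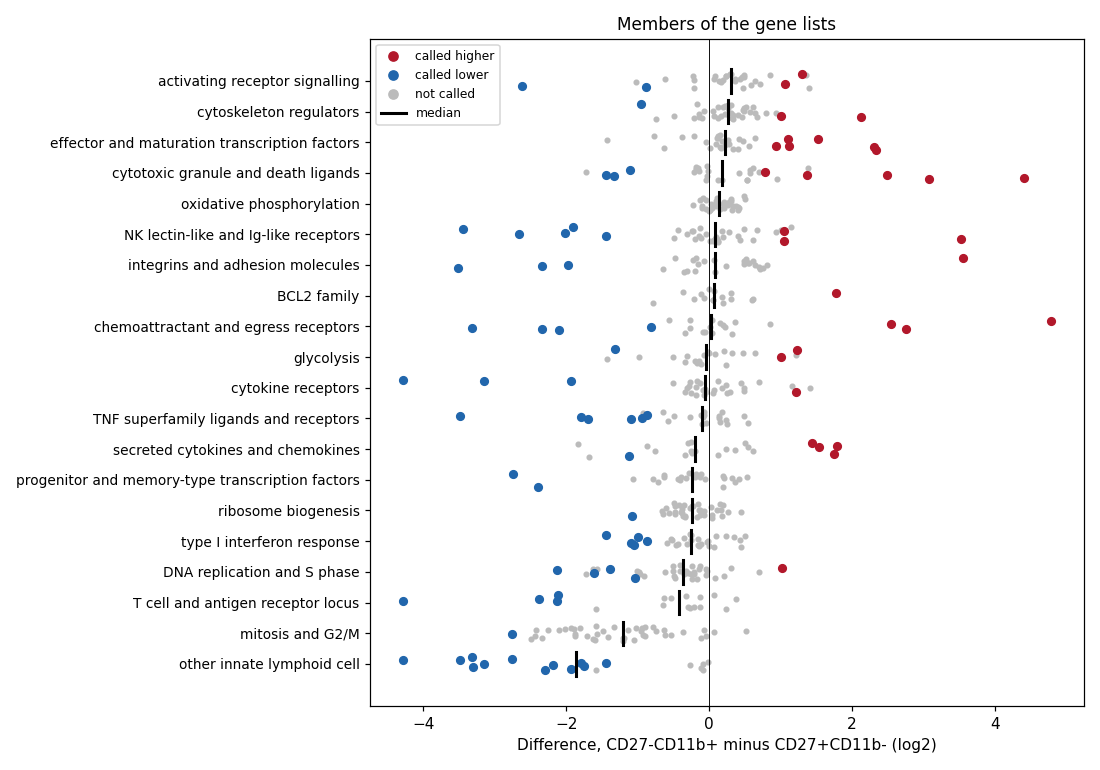
Log2 difference between CD27-CD11b+ and CD27+CD11b- (x axis) for the measured members of 20 gene lists, red where called higher, blue where called lower and grey where not called, with a bar at each list's median. The helper innate lymphoid list has the lowest median, -1.86, followed by mitosis at -1.21, while effector transcription factors hold 6 red points and 0 blue ones.

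Differences of proliferation genes were mostly negative, and unequal between the array pairs. Of 43 measured mitosis and G2/M genes 41 differences were negative, with a median of -1.21, yet only Mki67 passed. The list's called share was 2.33% against 3.39% of all genes, and over all genes 9235 of 18193 differences were negative. The list's median was -1.91 for the off pair and -0.61 for the on pair. The list's mean level shows where this gap lies: the CD27+CD11b- arrays were at 8.30 (off) and 7.06 (on), the CD27-CD11b+ arrays at 6.46 (off) and 6.33 (on). Cdca5, a cohesion factor, was 9.49 and 7.95 against 6.18 and 6.27 (-2.49, SE 0.56, adjusted p = 0.0573). Ccnb2, a mitotic cyclin, was 8.89 and 7.57 against 5.47 and 6.10 (-2.44, SE 0.64, adjusted p = 0.0895). With the array division as a block 25 of the 43 fell and 0 rose. Leaving out CD27+CD11b- replicate 1 gave a list median of -0.60 and leaving out its replicate 2 gave -2.04, and Mki67 missed the threshold when that replicate 1 or either of the CD27-CD11b+ arrays was left out (adjusted p = 0.135, 0.273 and 0.0921).

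Of 38 measured DNA replication genes 4 fell, 1 rose and 33 did not pass, with 33 negative differences and a median of -0.36 (-0.66 for the off pair, -0.12 for the on pair). Cdc6, which loads the replicative helicase, was 7.50 and 6.38 against 4.43 and 5.18, at least 1.40-fold lower (-2.13, SE 0.41, adjusted p = 0.0345). Mcm10, which helps to activate that helicase, was 6.98 and 6.34 against 5.22 and 5.34, and Hells, a chromatin remodeller, was 7.72 and 7.16 against 6.33 and 6.47. Ccne2, cyclin E2, differed by -1.61 and was near background in both. Against these Rpa2, a subunit of the single-strand binding protein RPA, rose from 9.15 and 9.21 to 10.26 and 10.14. All 5 calls were lost when CD27+CD11b- replicate 1 or either of the CD27-CD11b+ arrays was left out, at an adjusted p from 0.0509 to 0.244. In the blocked fit 10 fell and 2 rose.

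**Figure D4:**
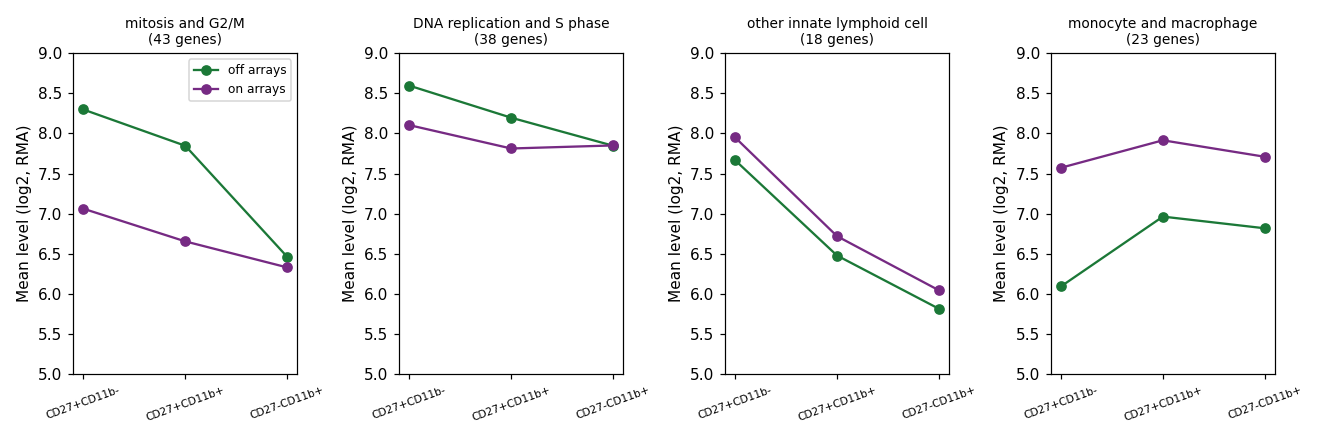
Mean RMA log2 level (y axis) of 4 gene lists in the 3 subsets, with green lines for the 3 off arrays and purple lines for the 3 on arrays, 1 array per point. Mitosis genes start at 8.30 (off) and 7.06 (on) and end at 6.46 and 6.33, the innate lymphoid list starts at 7.67 (off) and 7.95 (on) and ends at 5.81 and 6.04, and the monocyte and macrophage list is higher in the on arrays at every stage.

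Myeloid transcripts moved with the array division. Of 23 monocyte and macrophage markers 0 passed in limma without the block, and 6 were called higher and 0 lower with the array division as a block, among them C1qc (adjusted p = 0.0229), C1qa (0.0224) and C1qb (0.0268). Without the block 19 differences were positive with a median of 0.42 (0.93 for the off pair, -0.03 for the on pair). The list's mean was 6.09 and 7.57 in CD27+CD11b- and 7.71 and 6.82 in CD27-CD11b+, highest in the on array of each. C1qc, a complement component of macrophages, was 4.98 and 6.96 against 7.99 and 6.59. Their part in the results above was not tested. Of 11 measured NK cell markers Prf1 and Tbx21 rose, 0 fell and 9 did not pass, and the list's mean was 12.07 and 11.95 in CD27+CD11b- against 12.63 and 12.54 in CD27-CD11b+. None of the 13 neutrophil, 14 dendritic cell or 12 stroma markers passed without the block. With it 2 neutrophil markers were called higher (S100a9 at adjusted p = 0.0207) and Mmp9 lower (0.0061), and the dendritic cell markers Cd83 and Batf3 lower (0.0082 and 0.0086). For the 12 stroma markers the blocked fit called 0, and the neutrophil list's mean was likewise highest in the on arrays, 6.66 and 6.68 against 5.70 and 6.08. Mast cell markers were near background in both subsets for 12 of 13, Kit being the exception and the single call, while Cma1 was high. Of 10 platelet markers Gp1bb rose and Itgb3 fell, and of 10 erythroid markers Tfrc, the transferrin receptor that dividing cells need for iron, fell by 0.78. The Tfrc call was lost in limma with only the 4 arrays compared (adjusted p = 0.0605) and with 32 added to linear values (0.0597). It was also lost with the mean over probe sets (0.0684) and whichever 1 of the 6 arrays was left out.

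Of 29 measured type I interferon response genes 5 fell and 0 rose, with a median of -0.25 and a called share of 17.2%. Ifit1, an antiviral RNA-binding protein, was 6.93 and 7.28 against 5.72 and 5.60, at least 1.57-fold lower (-1.44, SE 0.19, adjusted p = 0.00927). Rtp4 fell by 1.09, from 9.10 and 9.11 to 7.98 and 8.05, and Ifit3 and Oas1a by 0.99 and 0.87 (Ifit3 did not pass with the replicate number as a block), while Oas3 was near background in both. Each of the 5 was lost with at least 1 of the 4 arrays left out (adjusted p from 0.0647 to 0.26), and all 5 without CD27-CD11b+ replicate 1. Pdk1, a kinase that inhibits pyruvate dehydrogenase, was 8.31 and 8.34 against 7.07 and 6.96, 2.49-fold lower (-1.31, SE 0.14, adjusted p = 0.00402). Hk1 and Pfkl, hexokinase 1 and the liver-type phosphofructokinase, rose by 1.23 and 1.01, so 2 of 22 glycolysis genes rose and 1 fell. After centring Hk1 and Pfkl did not pass, and other probe sets of Pfkl differed by 0.57 and 0.45.

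No oxidative phosphorylation gene of 32 was called by limma, in the model with or without the block, and the median of 0.14 became -0.05 after centring. Of 37 ribosome biogenesis genes Tsr1, a factor of small subunit assembly, fell, from 10.82 and 10.97 to 9.76 and 9.87, and 27 differences were negative. The called share of this list, 2.7%, was below the 3.39% of all genes. Tsr1 did not pass with any of the 4 arrays left out (adjusted p from 0.0531 to 0.137). Pmaip1, the BH3-only death promoter Noxa, was 6.63 and 7.01 against 8.68 and 8.52, 3.44-fold higher (1.78, SE 0.17, adjusted p = 0.00244), and passed in each of those fits. It was the single call of 16 BCL2 family genes, a share of 6.25% against 3.39% of all genes. Bcl2 itself was 11.09 and 11.15 against 9.16 and 11.51, so its late arrays disagreed, and at another probe set it was 10.80 and 10.57 against 10.46 and 10.56.

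Signalling and cytoskeletal genes completed the lists. Of 31 activating receptor signalling genes 2 rose and 2 fell. Fcer1g, the adaptor chain of Fc and natural cytotoxicity receptors, was 10.59 and 10.54 against 12.04 and 11.69, 2.46-fold higher (1.30, SE 0.17). Inpp4b, a phosphoinositide phosphatase, was 6.89 and 7.11 against 4.22 and 4.56, at least 1.46-fold lower (-2.61, SE 0.19, adjusted p = 7.27e-04). The kinase Txk rose by 1.06 (adjusted p = 0.0974 after centring) and the Ras activator Rasgrp1 fell by 0.89. Of 40 cytoskeleton regulators Rhpn1 rose by 2.13, from 5.22 and 4.80, near background, to 7.40 and 6.88. The calcium-binding S100a6 rose from 9.50 and 9.58 to 10.77 and 10.31, while its relative S100a4 fell by 0.95. Inpp4b alone among these passed with any 1 of the 4 arrays left out, and the lost calls had an adjusted p from 0.052 to 0.229.

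The middle subset showed how the difference between the ends was spread over the course. In CD27+CD11b+ cells the 408 genes called higher had covered a median of 34% of their difference and the 209 called lower a median of 41.9%. Among the genes called higher 181 lay in the early part of the way when it was divided into 3 equal parts, 197 in the middle part and 12 in the late part, with 17 below the early and 1 above the late level. Among those called lower the counts were 70, 80 and 43, with 11 and 5 outside. In limma contrasts of each step, early to middle and middle to late, 374 of the 408 and 173 of the 209 were called in neither. For most called genes the place along the way is therefore uncertain. Early movers included Cd163l1, Tnfrsf25 and Cd200r1. Late movers included Smarcd3 (11.8%), Cxcr3 (12.4%), Cx3cr1 (14.7%) and Emb (16.4%), and Myb and Thy1 had not begun to fall. The middle arrays are not those of the ends, but they enter the same estimate of the spread. The shares are descriptions without a test, from values that were not centred.

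**Figure D5:**
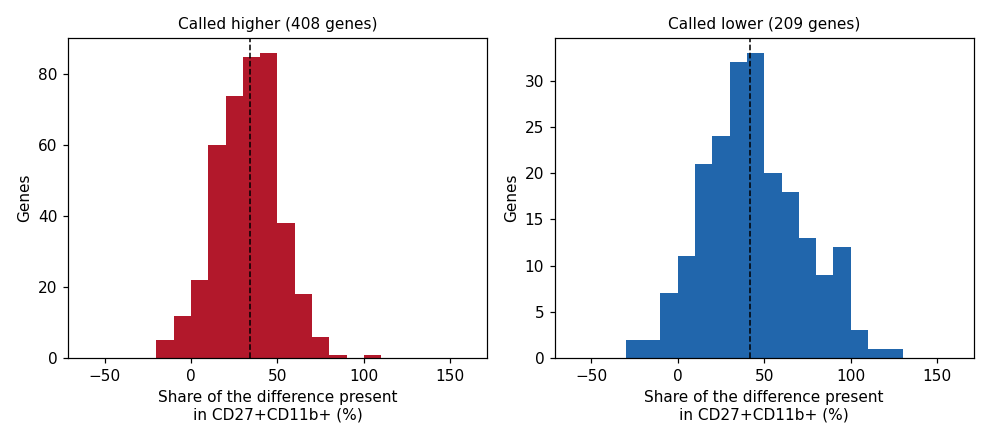
Number of genes (y axis) by the share of the difference between CD27+CD11b- and CD27-CD11b+ that was already present in CD27+CD11b+ cells (x axis, percent), for the 408 genes called higher and the 209 called lower, with a dashed line at the median. The medians are 34% and 41.9%, and the genes called lower reach further to the right, with 43 in the late part of the way against 12. The shares use values that were not centred, and which genes were called higher or lower depended on the scaling.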

How the data were processed

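The authors' deposited value table holds log2 expression values of 45101 probe sets on 6 arrays, computed by RMA as the submitters' processing notes state; the log2 scale was read from the values (array medians 5.26 to 5.36, minima near 2.60, maxima up to 14.72), while the sources used here give no RMA version. RMA gives every array one distribution of values and compresses differences of dim genes, so a shift common to most genes cannot be seen. Control probe sets (64) were left out. Of the rest 34945 had 1 symbol in the array annotation, 932 several and 9160 none; 34741 matched the RefSeq gene table. Each gene took its probe set with the highest mean over 6 arrays. The background level was the 95th percentile of 58 measured genes of other tissues.

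Samples were grouped by title and compared with limma 3.58.1 in R 4.3.3 (1 mean per subset, 3 residual and 4.93 prior degrees of freedom). The number of arrays limits the precision. Named genes were the 15 largest rises and 15 largest falls among called genes with arrays that did not overlap and a mean above background, the sorting markers, and up to 6 called members per list (up to 3 by size where fewer than 2 were called); others that complete a count, that check the cell type or that have the same role in the text were named after their values were seen. The 20 function and 9 marker lists, the members and the alternatives were chosen with earlier results of these data known. The statistics were tested on simulated data. The recovery of 4-fold changes asked of the test was missed with each gene's own estimated spread; it was then asked of spreads drawn from the fitted prior, where it was met. Of 90 named called genes 22 have another probe set above background, with the opposite sign or under 0.5 times the difference in 3 (Ighm, Klf3 and Pfkl). Alternatives were the replicate number or the array division as a block, only 4 arrays, a filter on dim genes, the mean over probe sets, an intensity trend, centring, 32 added to linear values and each array left out. Same-numbered arrays did not deviate together in every pair of subsets (correlations of 0.622, -0.249 and -0.139 over genes), so the numbers were not treated as pairs. Both negative values involve CD27-CD11b+, whose replicate 1 is an on array while replicate 1 of the other subsets is off. Matched by the array division, the arrays deviated together in every pair, which the main model leaves out and the block on that division includes.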

Additional observations from a re-analysis of the deposited data

Results flagged for a closer look

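Among the 9160 probe sets without a gene symbol, limma called 1 between the ends of the course after adjustment over these probe sets, and 659 had an unadjusted p under 0.05. This probe set, which enters none of the comparisons above, was 3.93 and 4.14 in CD27+CD11b-, 4.29 and 4.50 in CD27+CD11b+ and 7.81 and 8.04 in CD27-CD11b+, a difference of 3.89 (SE 0.16, adjusted p = 0.0188). It rose above the background level of 6.45 in the CD27-CD11b+ arrays and stayed below it in the other 4.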

How the results depend on the processing

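All 617 called genes kept their direction after centring and with the mean over probe sets. In the other alternatives the direction was fixed, because their subset arrays do not overlap. The count of 617 (408 higher, 209 lower) became 367 (255 and 112) after adding 32 to linear values, 1480 (965 and 515) with the array division as a block, and 558 after centring, where 203 were higher and 355 lower. With 1 array left out it ranged from 84 to 635 (41 to 409 higher, 43 to 226 lower); a lone array left in a subset is assumed to vary like the other groups. With the replicate number as a block 760 genes were called (503 and 257), 575 of them among the 617, and 87 of the 90 named calls were kept. Counts with only 4 arrays (635), an intensity trend (596), the mean over probe sets (550) and without dim genes (710) stayed within 1.5 times. The causes of these shifts were not tested. Of the 90 named calls 52 passed after adding 32 and 76 with the mean over probe sets. RMA values near background limit what can be said of dim genes.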
